A study of Mus musculus with 8 samples.

Results

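The collagen genes were taken from two-color microarrays of whole mouse pancreas by their symbols: every non-control probe whose gene name was Col, a number, the letter a and a number. This rule, which used no measured value, found 80 probes for 40 genes, out of 34850 probes with a symbol for 21597 genes. It covered 11 fibrillar collagens, the 6 chains of basement membrane collagen IV and 23 collagens of other types. Of the 40 genes, 11 had 1 probe and 29 had more, with at most 4. RNA from the pancreas of each of 8 female NOD mice (NOD/LtJ, 12 weeks old), labeled with Cy5 (red), was hybridized to its own array with Cy3-labeled (green) RNA of 1 pool of 8 NOD.B10 mice of the same age, congenic animals (NOD.B10Sn-H2b/J) that are not prone to diabetes and differ from NOD by design at the H2 complex. No array had the dyes exchanged, so a dye effect at a probe and a strain difference cannot be told apart. The pool gives no spread between NOD.B10 animals, so each p-value measures the spread of the 8 NOD mice around that pool.

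Collagens are secreted proteins whose chains wind into a helix of 3. Fibrillar collagens, led by type I and type III, form the rope-like fibers that accumulate in fibrosis. Collagen IV forms the sheet-like network of basement membranes under epithelium and around vessels and islets. The remaining types decorate fibers, anchor basement membranes, form beaded filaments or sit in cell membranes. In pancreas, stellate cells and fibroblasts are the best known source of fibrillar collagen, while endothelial and epithelial cells also make collagen IV.

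The sequences before the transcription start are shown for 5 members, chosen because the results turn on them: a type I and the type III fibril chain, of which Col1a2 passed the test as lower in NOD and Col3a1 did not (their difference was not tested), the brightest collagen (Col7a1), the collagen with the lowest mean ratio among those well above background in most arrays (Col6a3), and the collagen IV chain that was higher in NOD (Col4a4). RefSeq windows on GRCm38 matched 32 of the 40 genes, and only bases outside annotated exons are printed, 5′ to 3′ on the strand of the gene. They lie at chr6:4505373-4505492 (Col1a2, plus strand, ending 125 bases before the RefSeq start), chr1:45311418-45311537 (Col3a1, plus), chr9:108953466-108953585 (Col7a1, plus), chr1:90843972-90844091 (Col6a3, minus) and chr1:82586850-82586920 (Col4a4, minus, the gap up to the divergent neighbor Col4a3). Capitals mark GGGCGG or its reverse complement CCGCCC, and TATAAA.
Col1a2: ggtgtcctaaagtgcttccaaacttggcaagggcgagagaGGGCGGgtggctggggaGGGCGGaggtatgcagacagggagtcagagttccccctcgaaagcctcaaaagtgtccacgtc
Col3a1: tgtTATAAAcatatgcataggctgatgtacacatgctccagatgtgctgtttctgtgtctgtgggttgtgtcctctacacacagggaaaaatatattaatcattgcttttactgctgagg
Col7a1: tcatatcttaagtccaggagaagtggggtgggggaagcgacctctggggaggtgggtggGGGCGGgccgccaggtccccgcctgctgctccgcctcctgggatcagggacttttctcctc
Col6a3: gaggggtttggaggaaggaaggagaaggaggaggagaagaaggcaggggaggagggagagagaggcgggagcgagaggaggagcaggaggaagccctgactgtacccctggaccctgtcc
Col4a4: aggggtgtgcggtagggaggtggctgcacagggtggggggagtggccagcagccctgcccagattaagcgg
GGGCGG was found on either strand in 19 of the 35 collagen windows of 250 bases upstream (54.3%) and in 32.7% of all 32851 windows. CCAAT or ATTGG was in 12 of the 35 (34.3%), against 33.8% of all windows, and TATAAA or TTTATA in 5 (14.3%), against 12.4%. Overlapping matches were counted once per window, and these letters are a description of the windows only.

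The unit of the results is the log2 ratio of NOD over the NOD.B10 pool, so that a negative value is lower in NOD. Probe brightness, given as processed signal in arbitrary units, depends on the probe as well as on the transcript and does not rank genes by abundance. Red signal was the weaker channel: it was well above background, the software's own flag, in 21.6% to 35.3% of spots per array, against 57.6% to 60.7% in green. For collagens, green was well above background in all 8 arrays at 38 of the 80 probes and red at 10, and red was a stand-in value, put in where the signal did not rise above noise, in all 8 arrays at 22. No collagen probe was saturated. The filter used for testing, a processed signal of 25 or more in red on 4 or more arrays, passed 62 of the 80 probes and the brightest probe of 38 of the 40 genes (not Col12a1 and Col24a1). Col1a1 and Col3a1 were well above background in red in 8 arrays each and Col4a1 in 6.

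No collagen probe was called by the study's rule of a 2-fold change at an adjusted p under 0.01, while 1.72% of all 28105 tested probes were. The plain one-sample statistic also called 0 collagen probes. So did normexp background correction with loess (0.238% of all tested probes). With signals centered on the median of each array, 25 collagen probes (40.3%, against 25.8% of all tested probes) were called. Of these, 19 were higher in NOD (30.6%, against 21.3%) and 6 lower (9.68%, against 4.53%). Ratios of the processed signals, which do not set ratios of stand-in values to 0, gave 14 (22.6%, against 14.8%). Of these, 12 were higher (19.4%, against 12.3%) and 2 lower (3.23%, against 2.46%). At an unadjusted p under 0.05 limma found 2 collagen probes changed 2-fold (3.23%, against 3.70% of all tested probes). At any size 20 were lower (32.3%, against 25.1%) and 2 higher (3.23%, against 8.65%). By the weaker rule of a limma adjusted p under 0.05 at any size, 14 of the 62 tested collagen probes were lower in NOD (22.6%), against 13.8% of all tested probes. Only 2 (3.23%) were higher, against 5.5% of all tested probes. Counted as genes by their brightest probe, 10 of 38 collagens were lower (26.3%), against 14.4% of 18396 genes, and 2 were higher (5.26%), against 7.01%. Among the 19 collagen genes with red well above background on 4 or more arrays, called bright from here on, 7 were lower (36.8%) and 2 higher (10.5%), while of all 9544 such genes 14.8% were lower and 12.7% higher. With all 8 arrays, at an adjusted p under 0.05, the lower share of collagens stood above that of all probes or genes on each of these 3 counts, and the higher share below it. Without the 3 arrays (replicates 5, 6 and 7) whose grid the software did not rate as good, 3 collagen probes were lower (4.84%) and 1 higher (1.61%), against 7.18% and 3.5% of all tested probes, so that the lower share of collagens was then below that of all probes. Of the 12 collagen genes past an adjusted p of 0.05 with all 8 mice, Col1a2, Col4a4, Col7a1 and Col11a2 were past it on those 5 arrays. The other 8 (Col1a1, Col5a1, Col6a3, Col9a2, Col15a1, Col16a1, Col18a1 and Col25a1) kept their direction there at a limma adjusted p from 0.0524 to 0.110.

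The median log2 ratio was -0.23 over the 38 tested collagen genes, against -0.08 over all tested genes. It was -0.25 over the 19 bright collagens, of which 16 were below 0, against -0.06 over all bright genes, of which 57.5% were below 0. Taken array by array, the median of those 19 genes ran from -0.48 (replicate 8) to -0.06 (replicate 5), and in each of the 8 NOD mice it was below the median of all bright genes in the same array, which ran from -0.06 to -0.01. Replicate 8, the array with the smallest share of red spots well above background, was the lowest mouse at 8 of the 22 collagens described one by one, and without it 11 collagen probes were lower (17.7%, against 11.3% of all tested probes) and 2 higher (3.23%, against 5.35%). By type, 4 of 10 tested fibrillar genes were lower and 0 higher (median -0.33), 0 of 6 collagen IV chains were lower and 1 was higher (median -0.08), and 6 of 22 other collagens were lower and 1 higher (median -0.20). Over all genes 14.4% were lower and 7.01% higher. With 6 genes, the collagen IV counts cannot be told from those shares. Over the bright genes alone the medians were -0.39 for 5 fibrillar genes, -0.28 for 4 collagen IV chains, 3 of them below 0, and -0.22 for 10 others. In bulk tissue, fewer cells that make a transcript and less of it per cell cannot be told apart.

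**Figure D1:**
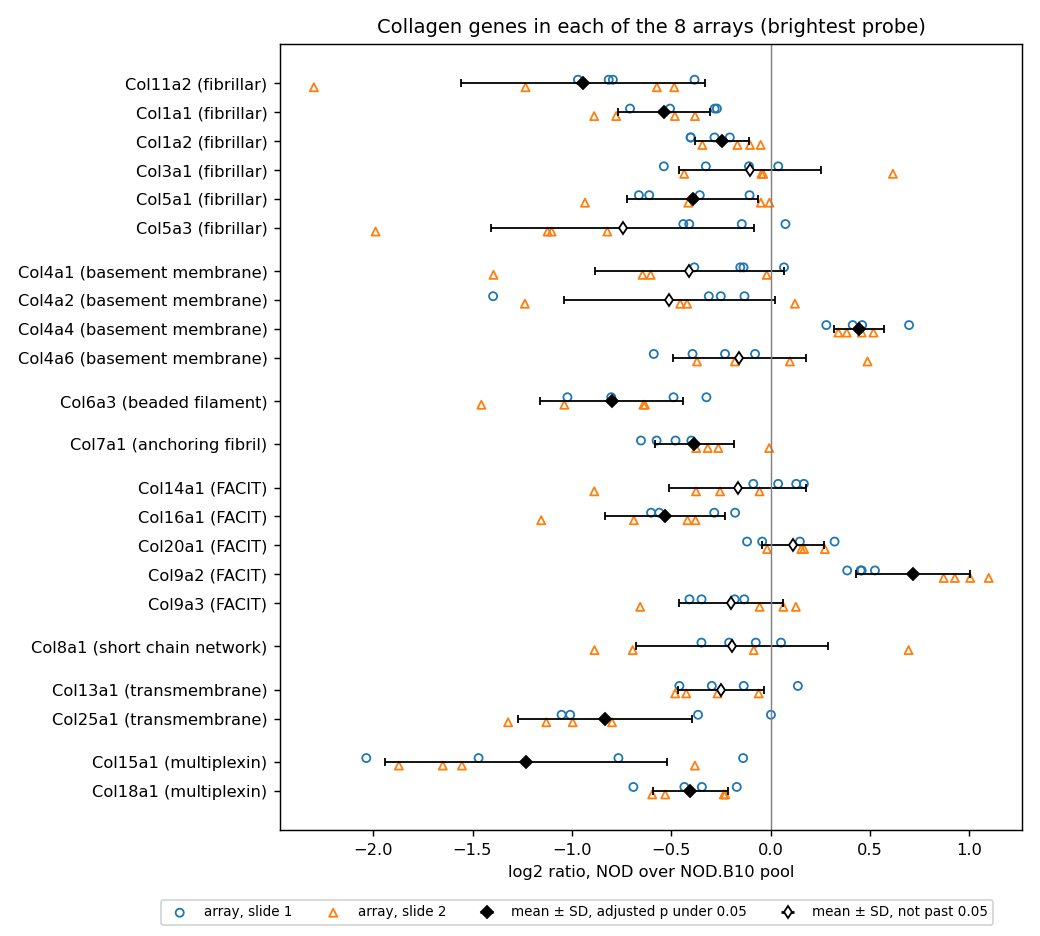
Log2 ratio of NOD over the NOD.B10 pool (x axis) in each of the 8 arrays for 22 collagen genes by their brightest probe (y axis, grouped by type), with circles for slide 1, triangles for slide 2 and diamonds with bars for the mean ± SD, filled where the limma adjusted p is under 0.05. Col4a4 and Col9a2 lie to the right of 0 in all 8 arrays, while Col1a1, Col1a2, Col5a1, Col6a3, Col7a1, Col11a2, Col15a1, Col16a1 and Col18a1 lie to the left in all 8.

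Type I collagen, the main fibril former of interstitial tissue, was lower in NOD at the brightest probes of both chains. Col1a1 (probe at mm8 chr11:94767851-94767910) had log2 ratios from -0.89 through a median of -0.49 to -0.27. All 8 mice were below the pool, with a mean of -0.54 ± 0.23 (SD, n = 8), or 68.9% of the pool (limma adjusted p = 0.00447, exact sign-flip permutation p = 0.00781, the smallest 8 arrays allow). This probe was printed as 10 spots per array, which were averaged. The other Col1a1 probes did not follow it. One, at a mean red signal of 181, had ratios from -1.52 to 0.86 (mean -0.08 ± 0.69, SD, n = 8, limma adjusted p = 0.875), and the last was at a stand-in value in red in all 8 arrays.

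Col1a2, the second chain of type I collagen (chr6:4490619-4490678, mm8), ranged from -0.40 through -0.24 to -0.05. Again all 8 mice were below the pool, but by less: the mean was -0.24 ± 0.13 (SD, n = 8), or 84.4% of the pool (limma adjusted p = 0.0125). Mean signals were 3630 in red and 4264 in green. The direction of Col1a2 rested on the scaling of the dyes, since its mean was 0.00 with median-centered signals and -0.04 with normexp background correction and loess.

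Col3a1, the type III chain that is mixed into type I fibers and is a usual marker of fibrosis, was the brightest fibrillar collagen probe (4926 in red, 5054 in green). Its ratios ran from -0.54 through -0.08 to 0.62, on both sides of the pool. The mean of -0.10 ± 0.36 (SD, n = 8) was not past the test (limma adjusted p = 0.573), with a 95% interval from -0.39 to 0.18. It was -0.21 without replicate 6, -0.04 without replicate 3 and -0.06 without replicate 8, none past the test (limma adjusted p = 0.134, 0.865 and 0.814). Within each of the 8 arrays Col1a1 was below Col3a1, with differences from -0.996 to -0.170 (mean -0.43 ± 0.30, SD, n = 8), a comparison chosen after the values had been seen and not tested. Col1a2 was below Col3a1 in 6 arrays and above it in 2 (mean difference -0.14 ± 0.25, SD, n = 8), also not tested.

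Type V and type XI collagens are the minor fibril chains that set fiber diameter, in most tissues and in cartilage respectively. Col5a1 was below the pool in all 8 mice, from -0.93 through -0.39 to -0.01, with a mean of -0.39 ± 0.33 (n = 8, SD over mice, limma adjusted p = 0.0461). This call was a near one: it was lost without any one of replicates 1, 2, 3, 4, 5 or 8 (limma adjusted p up to 0.103). It was also lost with the plain one-sample statistic (adjusted p = 0.0656), with no filter on red signal (limma adjusted p = 0.0580), with slide as a covariate (limma adjusted p = 0.0538) and with normexp and loess, where the mean was -0.08 (limma adjusted p = 0.302). Col5a3 spread further, from -1.99 through -0.63 to 0.07, and its mean of -0.74 ± 0.66 (SD, n = 8) was just short of the threshold (limma adjusted p = 0.0533). Its second, dimmer probe was lower in all 8 mice (mean -0.80 ± 0.56, SD, n = 8, limma adjusted p = 0.0244). The slides differed at the brighter probe, with means of -0.23 on slide 1 and -1.26 on slide 2, yet that difference was not past the test (limma adjusted p = 0.0959). With slide as a covariate Col5a3 was past the test at the same mean (limma adjusted p = 0.00954), as it was without replicate 2 (limma adjusted p = 0.0479).

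Col11a2 showed the lowest mean of the fibrillar group, and both of its probes were lower in all 8 mice. The brightest had ratios from -2.30 through -0.80 to -0.38 (mean -0.94 ± 0.61, SD, n = 8, limma adjusted p = 0.0187), and the other from -3.32 through -1.62 to -0.18 (mean -1.43 ± 1.02, SD, n = 8, limma adjusted p = 0.0260). With normexp and loess the mean of the brightest was -0.10 and not past the test (limma adjusted p = 0.145). Red signal was weak, with a mean of 124 at the brightest probe, well above background in 1 array. Col11a2 lies on chromosome 17 inside the span of the array's 53 H2 probes (33550087 to 36882517, mm8), 5 of them before it and 48 after it. Here the strains differ in sequence by design, and what a sequence difference under the probe adds to the ratio was not tested. Its neighbors in that stretch went both ways: the brighter Rxrb probe had a mean of -0.39 and Slc39a7 of 0.59, both at a limma adjusted p under 0.05 and with red well above background in 8 arrays. The remaining fibrillar genes, Col2a1, Col5a2, Col11a1 and Col27a1, had means from -0.69 to 0.13, none past the test.

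In the basement membrane network the chains differed from each other. Col4a1 and Col4a2, whose products assemble together in nearly every basement membrane, had means below 0 that did not pass the test at their brightest probes. Col4a1 (chr8:11198981-11199040, mm8) ran from -1.39 through -0.27 to 0.07 with 7 of 8 mice below the pool (mean -0.41 ± 0.48, SD, n = 8, limma adjusted p = 0.117). Col4a2 ran from -1.40 through -0.37 to 0.12, also with 7 of 8 below (mean -0.51 ± 0.53, SD, n = 8, limma adjusted p = 0.0860). Ratios under -1 came from replicate 8 for Col4a1, and from replicates 1 and 8 for Col4a2. Without replicate 8 the mean of Col4a1 was -0.27 (limma adjusted p = 0.121). The second Col4a2 probe was lower in all 8 mice (mean -0.87 ± 0.64, SD, n = 8, limma adjusted p = 0.0286), and the second Col4a1 probe had a mean of -0.64 ± 0.90 (n = 8, SD over mice, limma adjusted p = 0.185). Both genes passed the test with normexp and loess (limma adjusted p = 0.0427 for Col4a1 and 0.0368 for Col4a2), and with median-centered signals (limma adjusted p = 0.00943 and 0.000921).

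Col4a4, a chain of the specialised collagen IV network known best from the glomerulus of the kidney, went the other way. At its brightest probe (chr1:82331868-82331929, mm8) the ratios ran from 0.28 through 0.44 to 0.70, and all 8 mice were above the pool. The mean of 0.44 ± 0.13 (SD, n = 8), or 136% of the pool, had the lowest adjusted p of the collagens (limma adjusted p = 0.00129). Red signal was well above background in all 8 arrays (mean 1209, against 889 in green). The mean stayed above 0 with normexp and loess (0.26, limma adjusted p = 0.0107) and with median-centered signals (0.51, limma adjusted p = 0.0227). Within each array Col4a4 lay above Col4a1, by 0.35 to 1.85. The second Col4a4 probe did not pass the filter and had a stand-in in red in all 8 arrays.

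Col4a3, the divergent neighbor across the 71 bases shown above and the usual partner of Col4a4 in its network, was not measured above noise: all 3 of its probes had stand-in values in red in all 8 arrays and a deposited ratio of 0. Col4a6 ran from -0.59 to 0.49 (mean -0.16 ± 0.33, SD, n = 8, limma adjusted p = 0.378), with a mean of -0.25 without replicate 5 and -0.10 without replicate 1. Col4a5 had a stand-in in red in 5 arrays, and its mean of 0.59 (limma adjusted p = 0.354) came with 3 mice above the pool, 1 below and a median ratio of 0.00.

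**Figure D2:**
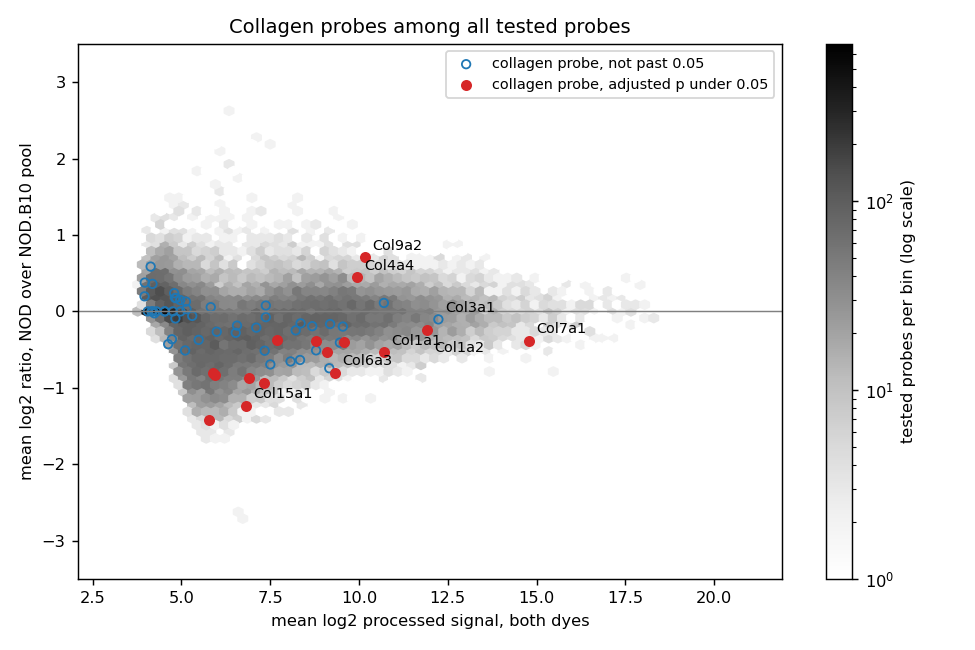
Mean log2 ratio (y axis) against mean log2 processed signal over both dyes (x axis) for the 28105 tested probes, binned in grey with a log color scale, with the 62 tested collagen probes on top (red where the limma adjusted p is under 0.05, open blue circles elsewhere). Col7a1 is the brightest collagen and lies at -0.38, while Col4a4 and Col9a2 are the red points above 0.

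Of the beaded filament collagens, which form the type VI microfibrils around cells and fibers, Col6a3 was lower. Its ratios ran from -1.46 (replicate 8) through -0.72 to -0.32, below the pool in all 8 mice. The mean was -0.80 ± 0.36 (SD, n = 8), or 57.4% of the pool (limma adjusted p = 0.00510). It remained past the test without each mouse in turn, with means from -0.87 to -0.71. The other tested Col6a3 probes did not follow it: one, at a mean red signal of 24, had a mean of -0.43 (limma adjusted p = 0.292), and the last was at a stand-in in red in all 8 arrays. The partner chains pointed the same way with more spread: Col6a1 had a mean of -0.66 ± 0.57 (n = 8, SD over mice, an adjusted p just above 0.05 by limma) and Col6a2 of -0.51 ± 0.73 (SD, n = 8, limma adjusted p = 0.186). Both had red well above background in 3 arrays.

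Col7a1, the chain of the anchoring fibrils that fasten squamous epithelium to the stroma below, had by far the brightest collagen probe (chr9:108841747-108841806, mm8), at 25133 in red and 32702 in green. The ratios ran from -0.65 through -0.39 to -0.01, with all 8 mice below the pool (mean -0.38 ± 0.20, SD, n = 8, limma adjusted p = 0.00910). The gene has a single probe on the array, so no second probe bears on this value. With normexp and loess the mean was -0.53 but not past the test (limma adjusted p = 0.0854).

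Of 8 tested FACIT collagens, which coat the surface of fibers, 1 was lower and 1 higher (14.4% and 7.01% over all genes). Col16a1 was below the pool in all 8 mice, from -1.15 through -0.49 to -0.18 (mean -0.53 ± 0.30, SD, n = 8, limma adjusted p = 0.0120). Its mean was -0.07 with normexp and loess and -0.27 with median-centered signals, and neither passed the test (limma adjusted p = 0.424 and 0.240). Col9a2, a chain of type IX collagen known best from cartilage, was above the pool in all 8 mice, from 0.39 through 0.70 to 1.10. Its mean of 0.72 ± 0.29 (SD, n = 8), or 164% of the pool, was the highest of the 22 collagens described one by one (limma adjusted p = 0.00345).

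The slides did not overlap for Col9a2: the mean was 0.46 on slide 1 and 0.97 on slide 2, a difference of 0.52 that passed the test (limma adjusted p = 0.0146; exact permutation p = 0.0286, the smallest that 4 against 4 allow). It was the only one of the 62 collagen probes to do so, while 3.26% of all tested probes did. The rise of Col9a2 also depended on the scaling, at 0.09 with normexp and loess and 0.14 with median-centered signals (limma adjusted p = 0.365 and 0.583). Col9a3, its partner chain, had a mean of -0.20 ± 0.26 (n = 8, SD over mice, limma adjusted p = 0.162) and lay below Col9a2 in each of the 8 arrays. Col14a1 (mean -0.17 ± 0.34, SD, n = 8) and Col20a1 (mean 0.11 ± 0.16, SD, n = 8) were not past the test (limma adjusted p = 0.366 and 0.200). Without replicate 8 the mean of Col14a1 was -0.06.

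Of the multiplexins, the basement membrane collagens that carry endostatin-like ends, both were lower. Col18a1 ran from -0.69 through -0.39 to -0.17 (mean -0.40 ± 0.19, SD, n = 8, limma adjusted p = 0.00643), and its second probe gave nearly the same mean of -0.37 ± 0.22 (n = 8, SD over mice, limma adjusted p = 0.0133). All 8 mice were below the pool at both probes. With normexp and loess the brighter probe stayed past the test (limma adjusted p = 0.0363) and the dimmer one did not (limma adjusted p = 0.782). Col15a1 ran from -2.03 through -1.51 to -0.14 (mean -1.23 ± 0.71, SD, n = 8, limma adjusted p = 0.0122), but red was well above background in 0 arrays and a stand-in in 3. Its second probe, a stand-in in red in all 8 arrays, had a mean of -0.03 (limma adjusted p = 0.565).

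Among membrane-spanning collagens, Col13a1 had a mean of -0.25 ± 0.22 (n = 8, SD over mice, limma adjusted p = 0.0539), with 7 of 8 mice below the pool, and passed the test without replicate 1 (limma adjusted p = 0.0220). Col25a1 was lower (mean -0.83 ± 0.44, SD, n = 8, limma adjusted p = 0.00880) at a red signal of 48 that was well above background in 0 arrays. Its mean was -0.05 with normexp and loess and -0.35 with median-centered signals, neither past the test (limma adjusted p = 0.534 and 0.144). Col8a1, a short chain collagen of vessel walls, ran from -0.89 to 0.69 (mean -0.19 ± 0.48, SD, n = 8, limma adjusted p = 0.457), with a mean of -0.32 without replicate 5, -0.09 without replicate 7 and -0.12 without replicate 8. The other 16 tested collagen genes had means from -0.69 to 0.59, 8 below 0, 6 above 0 and 2 at 0, and 0 of them passed the test by limma.

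**Figure D3:**
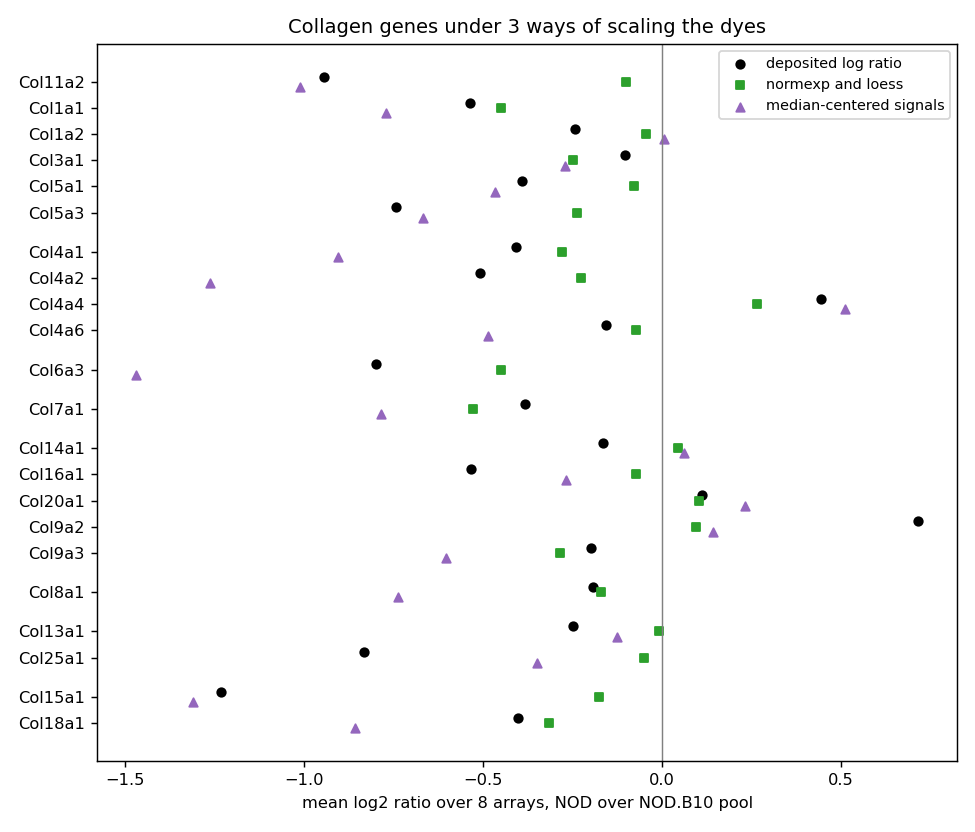
Mean log2 ratio over the 8 arrays (x axis) of the same 22 collagen genes (y axis) from the deposited log ratio (circles), from normexp and loess (squares) and from median-centered signals (triangles). Col1a1, Col6a3, Col7a1 and Col18a1 lie below 0 and Col4a4 above 0 in all 3, while Col9a2 drops from 0.72 to 0.09 and 0.14.

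Since the dyes can be scaled in several ways, the counts were set beside 2 other scalings. With normexp and loess 8 of 62 collagen probes were lower (12.9%) and 1 higher (1.61%), against 8.19% and 3.59% of all tested probes. Of these 8, 4 were among the 14 lower in the deposited ratios. Median-centered signals gave 17 lower (27.4%) and 24 higher (38.7%), against 17.2% and 29.8%. They moved the median of all tested probes from -0.09 to 0.09. Over tested probes with red well above background on 4 or more arrays, the median instead went from -0.06 to -0.15. That of the 19 bright collagens went from -0.25 to -0.49. With normexp and loess these 2 medians were -0.02 and -0.17. Of the 19 bright collagens 16 were below 0 in the deposited ratios, 15 with normexp and loess and 14 with median-centered signals, so that the direction of most of them did not turn. Col1a1, Col6a3, Col15a1 and Col18a1 stayed lower and Col4a4 higher past a limma adjusted p of 0.05 on each of the 3 scales at their brightest probes, with all 8 arrays.

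Other matrix genes, from collagen production to partners, receptors, breakdown and the TGF-beta arm, gave few calls. Of the 93 tested genes in 7 matrix lists, 11 were lower (11.8%) and 4 higher (4.30%) at a limma adjusted p under 0.05, against 14.4% and 7.01% of all genes. The lower count was 6 to 8 without any one mouse, and 17 with slide as a covariate or with median-centered signals. The folding and modification list had 2 lower and 1 higher of 18 (median -0.12). P4hb, a subunit of prolyl hydroxylase, rose (mean 0.32 ± 0.13, SD, n = 8, limma adjusted p = 0.00394), while Ppib, a proline isomerase, fell (-0.18 ± 0.10, SD, n = 8, limma adjusted p = 0.0144) in the deposited ratios only. With median-centered signals the mean of Ppib was 0.36 and not past the test (limma adjusted p = 0.179). With normexp and loess it was 0.86 and past the test as higher (limma adjusted p = 0.0244). Serpinh1, the collagen chaperone, had a mean of -0.10 ± 0.49 (n = 8, SD over mice, limma adjusted p = 0.722). In the cleavage and cross-linking list 2 of 11 were lower (median -0.14), both of them in the removal of procollagen ends: Pcolce, the enhancer of the C-terminal protease (mean -0.87 ± 0.25, SD, n = 8, limma adjusted p = 0.00117), and Adamts2, the N-terminal protease (mean -0.74 ± 0.29, SD, n = 8, limma adjusted p = 0.00305). Lox had a mean of -0.33 ± 0.71 (n = 8, SD over mice, limma adjusted p = 0.373).

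Fibril-bound proteoglycans and glycoproteins had 1 lower and 1 higher of 19 (median -0.21). Eln (elastin) was higher at 0.50 ± 0.29 (SD, n = 8, limma adjusted p = 0.0123), Mfap4 was lower, and Dcn (decorin, -0.21 ± 0.30, SD, n = 8, limma adjusted p = 0.184) was not past the test. Among 13 basement membrane partners (median -0.38), the laminin chain Lama2 and Nid2 (nidogen) were lower and Lamc1 higher, at 0.29 ± 0.14 (SD, n = 8, limma adjusted p = 0.00765). Lama2 and Nid2 had red well above background in 0 arrays, with a stand-in in red in 2 and 3 arrays. The mean of Lamc1 was below 0 on both other scales, at -0.35 with median-centered signals and -0.21 with normexp and loess. Lama1 was at a stand-in in red in all 8 arrays.

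Of 10 collagen receptors (median -0.06), Ddr1 was lower (mean -0.20 ± 0.17, SD, n = 8, limma adjusted p = 0.0498) and the platelet receptor Gp6 higher, at a weak red signal of 117. Like Col11a2, Ddr1 lies within the span of the H2 probes. Of 10 collagenases, gelatinases and inhibitors (median -0.03), Timp2 was lower (mean -0.34 ± 0.28, SD, n = 8, limma adjusted p = 0.0472), and Mmp2 had a mean of 0.00 ± 0.74 (SD, n = 8). Of 12 genes in the TGF-beta arm (median -0.06), the ligands Tgfb3 (mean -0.68 ± 0.24, SD, n = 8, limma adjusted p = 0.00245) and Tgfb1 (mean -0.48 ± 0.38, SD, n = 8, limma adjusted p = 0.0377) were lower. Tgfb3 had a mean of -0.31 with median-centered signals and -0.15 with normexp and loess, neither past the test (limma adjusted p = 0.283 and 0.355). Tgfb1 had a red signal of 61 that was well above background in 0 arrays, and its mean was 0.03 with median-centered signals.

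Markers of cells that make collagen, or share the tissue, moved as follows, and their part in the collagen values was not tested. Of 12 fibroblast and stellate cell genes (median -0.17), 2 were lower and 1 higher. The 2 lower ones, Des and Gli1, had red well above background in 0 arrays and a stand-in in red in 8 and 7 arrays. With median-centered signals Gli1 had a mean of 0.82, past the test as higher (limma adjusted p = 0.00515). S100a4, which leukocytes also express, was higher (mean 0.75 ± 0.24, SD, n = 8, limma adjusted p = 0.00174), and Pdgfra had a mean of -0.35 ± 0.77 (n = 8, SD over mice, limma adjusted p = 0.386). Of 8 smooth muscle and pericyte genes (median -0.34), Acta2 (mean -0.54 ± 0.37, SD, n = 8, limma adjusted p = 0.0228) and Cnn1 (mean -1.33 ± 1.08, SD, n = 8, limma adjusted p = 0.0406) were lower.

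In the endothelium list 6 of 9 genes were lower (66.7%, against 14.4% of all genes) and 0 higher (against 7.01%), with a median of -0.43 against -0.08 over all tested genes. Kdr (-0.42 ± 0.13, SD, n = 8, limma adjusted p = 0.00146), Flt1 (-0.67 ± 0.30, SD, n = 8, limma adjusted p = 0.00487), Eng (-0.50 ± 0.23, SD, n = 8, limma adjusted p = 0.00595) and Emcn (-0.35 ± 0.16, SD, n = 8, limma adjusted p = 0.00650) were each below the pool in all 8 mice, and Pecam1 in 7 of 8 (-0.55 ± 0.41, SD, n = 8, limma adjusted p = 0.0310). With normexp and loess, 2 of the 9 were lower (Flt1 and Emcn). Eng had a mean of -0.01 on that scale and -0.17 with median-centered signals (limma adjusted p = 0.894 and 0.485). The summed signal of the list ran from 3344 to 6023 in red and from 5349 to 8302 in green. Leukocyte genes went the other way, with 3 of 10 higher, 0 lower and a median of 0.37, among them Ptprc, the common leukocyte antigen (mean 1.46 ± 0.98, SD, n = 8, limma adjusted p = 0.0210), and Cd3e of T-cells (mean 0.61 ± 0.31, SD, n = 8, limma adjusted p = 0.00762).

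In the remaining lists 2 of 12 acinar genes were higher (median 0.06), 2 of 7 duct genes lower (median -0.10), 2 of 7 beta cell genes lower (median -0.61), 1 of 7 adipocyte genes lower (median -0.66), and 1 of 5 Schwann and nerve genes lower and 1 higher (median -0.12). Of the other list genes named as lower or higher, Timp2, Des, S100a4 and Pecam1 were not past a limma adjusted p of 0.05 on either other scale, P4hb was not with median-centered signals, and Eln, Mfap4, Lama2 and Kdr were not with normexp and loess.

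**Figure D4:**
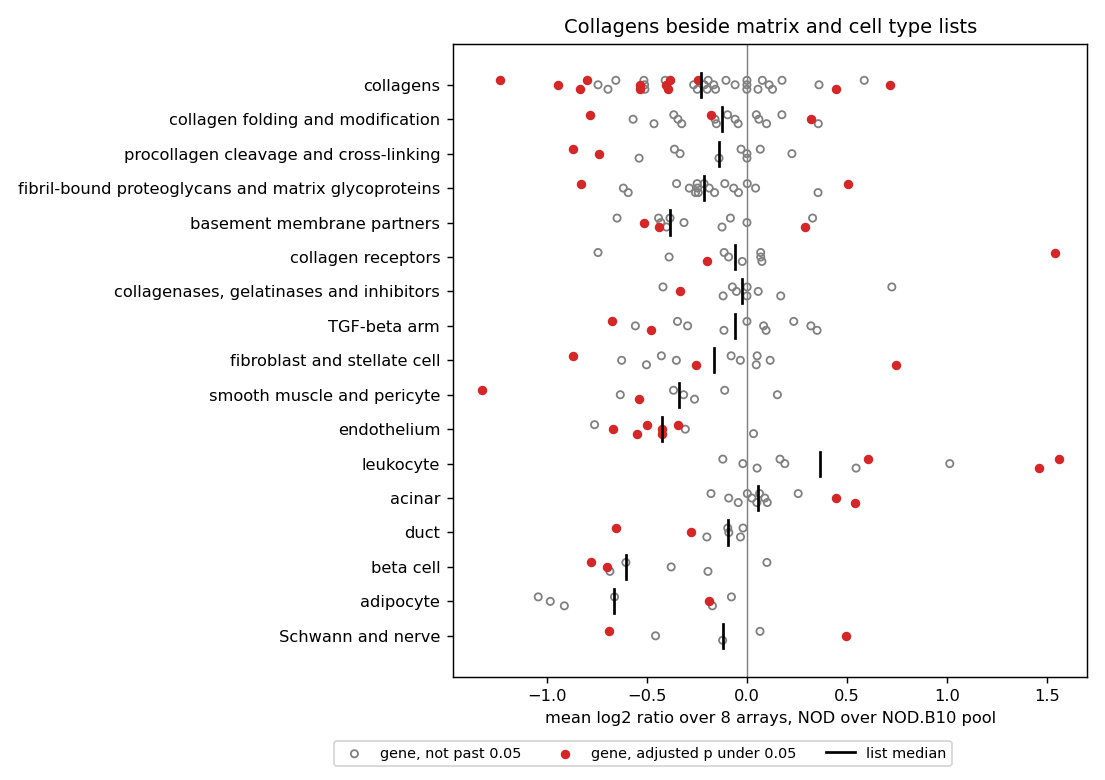
Mean log2 ratio over the 8 arrays (x axis) of each tested gene in the collagens and in the 16 matrix and cell type lists (y axis), filled red where the limma adjusted p is under 0.05, with a black line at the list median. The collagen median lies at -0.23, the endothelium list at -0.43 with 6 filled points, and the leukocyte list at 0.37.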

How the data were processed

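Two-color arrays of 8 NOD pancreata, each against 1 NOD.B10 pool, were analysed. With Feature Extraction 10.7.3.1 of Agilent, the authors computed the deposited log10 ratio of red over green at each spot. For each dye the authors also deposited a signal intensity from which background had been subtracted and which had been normalized between the dyes. The deposited flags (other) mark signals well above background and stand-in values, and the deposited ratio can be 0 where stand-ins enter. Probe positions are those of the files (mm8, NCBI36).

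Log10 ratios were converted to log2 and averaged over the spots of a probe. A probe with a symbol was tested if its red intensity reached 25 on 4 or more arrays (28105 probes). The test was limma's moderated test (version 3.58.1, R 4.3.3) of the mean ratio against 0, Benjamini-Hochberg adjusted over all of them and checked on simulated data. Single genes were also tested over all 256 sign flips. The brightest probe over both dyes stands for a gene. Collagens past an adjusted p of 0.05, or bright in red on 4 or more arrays, and the markers Col1a1, Col3a1 and Col4a1 are described one by one. Of each list, at most the 4 genes of smallest adjusted p and the first gene are named, and the Col11a2 neighbors were named after their values were seen. The members, the matrix and cell type lists and the tests were chosen with earlier results of these data known.

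Alternatives were the plain statistic, no filter, a filter on red well above background (4 or more arrays), background-subtracted signals centered on the median of each array (median-centered signals), normexp (offset 50) with loess, ratios of the deposited processed signals, slide as a covariate, array quality weights, other probes, other thresholds and leaving out each mouse. Arrays share slides in 2 sets of 4 (replicates 1 to 4 and 5 to 8), read from the barcodes in the file headers. Sequences are from RefSeq (GRCm38), with GENCODE exons masked. Filters of the study that need human data were left out. The number of arrays limits the precision.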

Additional observations from a re-analysis of the deposited data

Results flagged for a closer look

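Col9a2 differed between the 2 slides, by 0.52 (log2, slide 2 minus slide 1) in limma's test of the arrays of one slide against the other (adjusted p = 0.0146), with 4 of 4 arrays of slide 2 above all 4 of slide 1. Within slide 1 its mean was 0.46 and within slide 2 it was 0.97, and with normexp and loess 0 collagen probes differed between slides by limma. Slide 2 holds the 3 arrays (replicates 5, 6 and 7) whose grid the software did not rate as good, and their part in the difference was not tested.

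For Col11a2, replicate 7 lay apart from the other 7 arrays at -2.30, with the next lowest mouse at -1.23, a gap of 0.56 of the whole range. Chance puts a sample this far out in about 1 in 20 groups, and 22 collagen genes were looked at. Without replicate 7 the mean was -0.75 (limma adjusted p = 0.00774).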

How the results depend on the processing

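Without each mouse in turn, the probes called stayed at 0, the collagen probes lower past an adjusted p of 0.05 ran from 11 to 14 (17.7% to 22.6%, against 9.29% to 11.4% of all tested probes) and those higher stayed at 2 (3.23%, against 4.07% to 5.35%), the median ran from -0.26 to -0.21, the matrix list genes lower from 6 to 8 (main value 11, with 6 without replicate 2 or 8 and 7 without replicate 1, 4, 5, 6 or 7) and higher from 4 to 6, and the endothelium genes lower from 4 to 7. Collagen probes called 2-fold numbered 25 with median-centered signals (40.3%, against 25.8% of all tested probes), 19 of them higher in NOD and 6 lower. They numbered 14 with ratios of processed signals (22.6%, against 14.8%), 12 of them higher and 2 lower. The number called was 1 with slide as a covariate (1.61%, against 2%), 3 at a fold of 1.5 (4.84%, against 3.95%) and 2 at an adjusted p of 0.05 (3.23%, against 3.27%). Collagen probes higher were 24 with median-centered signals (38.7%, against 29.8%) and 19 with ratios of processed signals (30.6%, against 21.3%), which do not set ratios of stand-in values to 0, and 1 with normexp and loess, where 8 were lower and the median was -0.058. Matrix list genes lower were 6 with the plain statistic, 7 without a filter, and 17 both with median-centered signals and with slide as a covariate. Those higher were 19 with median-centered signals, 16 with ratios of processed signals and 7 with slide as a covariate. Endothelium genes lower were 2 with normexp and loess. Collagen probes differing between slides were 6 at the smallest exact permutation p, unadjusted (9.68%, against 12.9% of all tested probes), and 0 with normexp and loess. Added after the data had been seen, the 5 arrays with a grid rated as good gave 3 collagen probes lower (4.84%, against 7.18% of all tested probes) and 1 higher (1.61%, against 3.5%), with fewer samples. Counting only bright features, also added then, gave 8 of 22 collagen probes lower (36.4%, against 13.8% of all such probes). It gave 6 of 53 matrix list genes lower, while 14.8% of all bright genes were. The cause of the other differences was not tested.

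Under another scaling or at another probe, the means that turned sign were Col14a1 (0.060 with median-centered signals, 0.044 with normexp and loess), Col1a2 (0.0047 with median-centered signals) and second probes of Col8a1 (0.15), Col4a6 (0.38), Col3a1 (0.17) and Col16a1 (0.24), each dim in red and not past the test. Within 1 slide, the means of Col3a1 (0.024, slide 2), Col4a6 (0.0085, slide 2) and Col14a1 (0.062, slide 1) were above 0. No paired analysis was possible because the 8 arrays form 1 group. Red signal near background limits the dim collagens.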
